A study of Ovis aries with 15 samples.

Results

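The 5 libraries labelled CON are transcriptomes of rumen epithelium from sheep that make up the control group of a study of high-grain feeding. They were taken by their label, and they are 5 of the 15 libraries of the study, which also holds 5 libraries labelled HG and 5 labelled HP that were not analysed here. All 5 came from male Hu lambs of 6 months of age. The letters CON were read as control from the study's title, which names a high-grain diet in pelleted and in non-pelleted form. The composition of the control diet is not stated in the labels, nor is it stated that each library is a lamb of its own, so the spread between libraries may be partly technical. Total RNA had been extracted from frozen tissue with Trizol. With 1 group there was no contrast, so no test between groups was made, and each level is given with its SD over the 5 libraries.

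The rumen is the first and largest forestomach of a sheep, in which microbes ferment feed to acetate, propionate and butyrate. Its lining is a stratified squamous epithelium with a basal layer that divides, layers of differentiating keratinocytes joined by desmosomes and gap junctions, and a cornified surface that faces the feed. The same epithelium absorbs short-chain fatty acids, sodium and water, recycles urea, and turns much of the absorbed butyrate into ketone bodies.

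Levels are in FPKM, a fragment count divided by transcript length and library size, so levels of different genes can be set side by side per length. The tables hold 19304 entries, of which 13560 carry a gene symbol, 1587 a gene number only and 4157 no name. A mean of at least 1 FPKM was found for 12300 entries and of at least 50 FPKM for 1272. The 1050 distinct symbols with a mean of at least 50 FPKM, of 13516 in all, are called abundant genes here. Each count of abundant members of a list below is to be read beside that share. The files give no read counts, so the depth of a library is unknown and no counting interval can be given.

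The libraries differed in how far a few genes dominated them. The median entry stood at 1.98, 2.98, 1.52, 2.8 and 2.51 FPKM in CON1 to CON5, in that order, which is the order of every series of 5 values given here. CON3 had the lowest median and CON2 the highest. Of the 1050 abundant genes, 383 were highest in CON3 and 498 were lowest in CON2, so either place is common for a single gene. In CON3 the 99 highest entries held 50% of the summed FPKM, against 185 in CON2. Across all entries the libraries ranked genes much alike, with Spearman's rho between 0.916 and 0.958 for the 10 pairs, a description across genes, which are not independent replicates. CON1 and CON5 stood apart by smooth muscle genes and CON3 by its low median, and several means and SDs are given without them as well.

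Ribosomal protein genes and epithelial structural genes filled the top of the list. The 50 most abundant named genes held 28.7, 23.6, 31.4, 23.6 and 24.9% of the summed FPKM, or 26.4% ± 3.45 (SD, n = 5). Of these 50 genes, 43 belonged to the list of cytosolic ribosomal proteins. The remaining 7 were the keratins KRT17, KRT6A and KRT36, the calcium-binding S100A8 and S100A2, the phospholipid-binding ANXA1 and the peroxidase PRDX6. Sequences of these genes were not used here. No source names the genome build of the files, so RefSeq positions served only for gene order and gene length.

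KRT17, a type I keratin of stressed and activated epithelium, was the most abundant named gene, at 9826, 6059, 9524, 6684 and 6861 FPKM. Its mean was 7791 ± 1749 FPKM (SD, n = 5), and its lowest library still stood above the mean of every other named gene. In single libraries it was approached by RPL31 and S100A8, since S100A8 reached 9132 FPKM in CON3. Among the ribosomal protein genes, RPS2 and RPL31 had means of 4994 ± 932 and 4984 ± 1831 FPKM, which differed by far less than their SDs. Their order is therefore not a result.

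**Figure D1:**
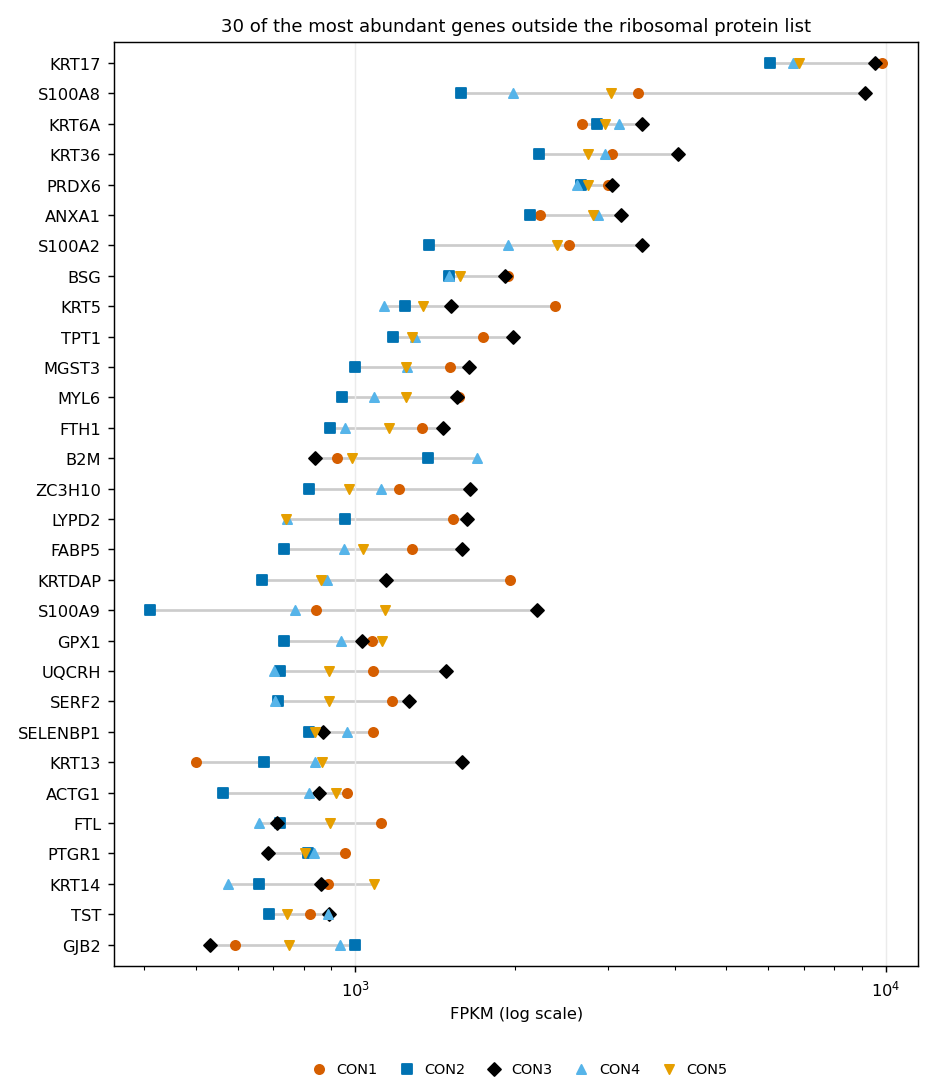
FPKM (log scale) of 30 of the most abundant named genes outside the ribosomal protein list, 1 symbol for each of the 5 CON libraries, with a grey line from the lowest to the highest library. KRT17 stands alone at the top with a mean of 7791 FPKM, PRDX6 and KRT6A show narrow ranges, and S100A8 and S100A9 show the wide ones, with CON3 highest.

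The list of keratins held 20 found genes, 10 of them abundant, and took 3.43% ± 0.163 (SD, n = 5) of the summed FPKM. KRT6A, the type II keratin that is usually co-expressed with KRT17, was measured at 2680.2, 2859, 3474, 3137 and 2955 FPKM, and no library departed far from the mean of 3021 ± 302 FPKM. KRT36, a type I keratin known from hair and from the filiform papillae of the tongue, was measured at 3043, 2215, 4055, 2952 and 2746 FPKM. It was highest in CON3 and lowest in CON2.

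The basal keratins were abundant too. KRT5, the type II keratin of basal cells, was measured at 2382, 1241, 1516, 1133 and 1344 FPKM, and CON1 was above the other 4 libraries, whose mean was 1308 ± 163 FPKM. Its type I partner KRT14 had a mean of 814 ± 202 FPKM and KRT15, another basal type I keratin, one of 676 ± 112 FPKM. KRT13, the type I keratin of the upper layers of internal squamous epithelia, was measured at 501, 672, 1592, 841 and 865 FPKM. CON1 was the lowest library for KRT13 and CON3 the highest, with no other library near CON3, and without CON3 its mean was 719.6 ± 169 FPKM (SD, n = 4).

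Keratins known from other epithelia ranged from scarce to abundant. KRT4, the type II keratin that pairs with KRT13 in the human oesophagus, had a mean of 2.78 ± 2.43 FPKM. The pair of cornifying epidermis stood at 6.72 ± 2.15 FPKM for KRT10 and 0.623 ± 0.348 FPKM for KRT1. The pair of simple epithelia stood at 2.26 ± 0.403 FPKM for KRT18 and 0.363 ± 0.274 FPKM for KRT8. KRT7 and KRT19, which simple epithelia also use, stood higher, at 30.9 ± 17.7 and 112 ± 15.5 FPKM. Of the other type II keratins, KRT78 and KRT79 had means of 574 ± 88.9 and 472 ± 86.8 FPKM. Keratin genes lie in clusters of close relatives and 3 of the most abundant ones, KRT6A, KRT13 and KRT14, were named through a gene number, so reads shared between relatives could move these levels.

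Genes of late differentiation were abundant in part. Of 19 genes found of the cornified envelope list, 7 were abundant. KRTDAP, a secreted protein of differentiating keratinocytes, was measured at 1958, 667, 1142, 884 and 862 FPKM, with CON1 highest and a mean of 889 ± 195 FPKM in the other 4. The protease inhibitor A2ML1 was measured at 677, 797, 705, 972 and 359.5 FPKM and was lowest in CON5. TGM3, a transglutaminase that cross-links envelope proteins, was measured at 569, 300, 622, 351 and 744 FPKM and was highest in CON5, with a mean of 461 ± 159 FPKM in the other 4. IVL, which encodes the envelope protein involucrin, was also highest in CON5, at 302 FPKM against 89 to 179 FPKM elsewhere, a mean of 122 ± 40.8 FPKM.

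Other members had means of 435 ± 79 FPKM for MAL, a proteolipid of apical membranes, and 265 ± 28.9 FPKM for LYPD3. PRD-SPRRII, a small proline-rich gene outside the list that was picked out after its values were seen, had a mean of 424 ± 106 FPKM. The plakins PPL and EVPL, which anchor the envelope to desmosomes, stood lower, at 42.2 ± 12.8 and 25.8 ± 10.1 FPKM. CDSN, which encodes corneodesmosin of the epidermal surface, had a mean of 0.35 ± 0.307 FPKM. The members varied, and the median SD of the abundant ones was 0.54 on the log2(FPKM + 1) scale, against 0.29 for all abundant genes.

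Some isoforms of junction proteins were abundant and others scarce. GJB2, which encodes the gap junction protein connexin 26, was measured at 593, 999, 533, 936 and 749 FPKM. CON2 and CON4 were high, and CON1 and CON3 were low. GJA1, which encodes connexin 43, had a mean of 363 ± 61.8 FPKM, and PERP, a desmosomal membrane protein, one of 581 ± 75.2 FPKM. The desmosomal plaque was represented by JUP at 131 ± 26.1 FPKM, DSP at 92.3 ± 24.5 FPKM and PKP3 at 88 ± 8.77 FPKM.

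Among the desmosomal cadherins, DSG3 and DSC2 had means of 68.7 ± 21.5 and 58 ± 30.4 FPKM. DSG1 and DSC1, the isoforms of the uppermost human epidermis, had means of 0.415 ± 0.551 and 0.21 ± 0.0881 FPKM. No library brought DSG1 or DSC1 near the level of DSG3. At the tight junction, CLDN4 had a mean of 159.6 ± 20.3 FPKM and CLDN1, a claudin needed for the skin barrier, one of 72.1 ± 20.2 FPKM. OCLN, which encodes occludin, was measured at 16.8, 32.3, 4.75, 33.7 and 21.1 FPKM, and CON3 was far below the other libraries.

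The calgranulins were the abundant genes of defence. S100A8, which pairs with S100A9 to form the metal-binding calprotectin, was measured at 3409.7, 1579, 9132, 1985 and 3036 FPKM. S100A9 was measured at 844, 411, 2203, 769.8 and 1139 FPKM. Both were highest in CON3 and lowest in CON2, and their means were 3828 ± 3058 and 1073 ± 683 FPKM. Without CON3 these were 2502 ± 862 and 791 ± 299 FPKM (SD, n = 4). S100A2, a member known from basal keratinocytes, was also highest in CON3 and lowest in CON2, with a mean of 2343 ± 776 FPKM, or 2061 ± 523 FPKM without CON3. ANXA1, an annexin with anti-inflammatory action, was steadier, at 2228, 2134, 3173, 2868 and 2802 FPKM.

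Other genes of epithelial defence were less abundant. IL36A, a cytokine of the interleukin-1 family, was measured at 158, 157, 279, 229 and 429 FPKM, and CON5 was above the mean of 206 ± 59.4 FPKM of the other 4. PI3, which encodes the elastase inhibitor elafin, was measured at 285, 111, 693, 272 and 649 FPKM, with CON3 and CON5 high and CON2 low. LCN2, an antimicrobial iron-siderophore binder, had a mean of 52.6 ± 12.5 FPKM. The inflammatory cytokines IL1B and CXCL8 had means of 2.43 ± 1.23 and 2.35 ± 1.53 FPKM.

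Genes of ketone body metabolism were abundant in part. BDH1, which reduces acetoacetate to 3-hydroxybutyrate, was measured at 184, 207, 223, 179 and 339 FPKM, and CON5 was above the other 4 libraries, whose mean was 198 ± 20.5 FPKM. OXCT1, the enzyme with which other tissues use ketone bodies, had a mean of 2.18 ± 0.759 FPKM.

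The enzymes that take butyryl-CoA to acetyl-CoA were abundant in every library. ACADS, the short-chain acyl-CoA dehydrogenase, had a mean of 471 ± 56.7 FPKM. ECHS1, the hydratase of the next step, had one of 411 ± 38.8 FPKM and an SD of 0.14 on the log2 scale. HADH had a mean of 417 ± 70.4 FPKM and the thiolase ACAT1 one of 222 ± 54.4 FPKM. Of 14 genes found of the list, 8 were abundant, and their summed share was 0.648% ± 0.129 (SD, n = 5).

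Other genes of fuel use ranged from abundant to scarce. FABP5, a fatty acid binding protein of squamous epithelium, was measured at 1280.2, 734, 1589.7, 952 and 1033 FPKM. LDHA, the muscle-type lactate dehydrogenase subunit, was measured at 738, 678, 735, 734 and 644 FPKM with an SD of 0.089 on the log2 scale, which was 0.30 after the libraries were scaled by their median ratio. The long-chain carnitine transferase CPT1A and the trifunctional protein gene HADHA had means of 6.91 ± 2.26 and 41.7 ± 2.55 FPKM, below the short-chain enzymes. PPARG, a nuclear receptor of lipid metabolism, had a mean of 64.4 ± 6.12 FPKM, and PPARA, its relative in the liver, one of 3.99 ± 1.25 FPKM.

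Respiratory chain genes took 1.29% ± 0.101 (SD, n = 5) of the summed FPKM, and 27 of 30 found were abundant. UQCRH, a small subunit of complex III, was the highest at 1081, 722, 1486, 702 and 891 FPKM. The ATP synthase subunit gene ATP5A1 was measured at 631, 531, 568, 565 and 597 FPKM and ATP5B at 492, 457, 438, 482 and 483 FPKM. Both ATP synthase subunits were even between libraries, while UQCRH was higher in CON1 and CON3 than in the other 3.

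Transporters of acids and sodium spanned a wide range. BSG, the membrane chaperone basigin that brings monocarboxylate transporters to the surface, was measured at 1939.6, 1502, 1918, 1505 and 1575 FPKM. SLC16A1, the monocarboxylate transporter MCT1, was measured at 208, 249.8, 190.1, 289.5 and 218 FPKM. The sodium pump beta subunits ATP1B3 and ATP1B1 had means of 309.8 ± 52.2 and 16.4 ± 5.92 FPKM. SLC16A3, the transporter MCT4, had a mean of 2.6 ± 1.13 FPKM.

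Exchangers of protons and anions stood lower. SLC26A3, a chloride-bicarbonate exchanger, had a mean of 43.3 ± 14.8 FPKM, and CA12, a membrane carbonic anhydrase, one of 61.2 ± 20.9 FPKM. The sodium-proton exchanger SLC9A3 was measured at 12.3, 36, 5.23, 38.1 and 14.4 FPKM. CON2 and CON4 were high for SLC9A3 and CON3 was low. SLC9A2, of the same family, had a mean of 14.5 ± 9.58 FPKM, and the transporters SLC4A4 and SLC5A8 stood at 0.28 ± 0.262 and 0.161 ± 0.137 FPKM. SLC14A1, the urea transporter, was measured at 26, 63.7, 15.7, 45.1 and 40.4 FPKM, and AQP3, a channel for water and glycerol, had a mean of 112 ± 34 FPKM.

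Genes against oxidants and electrophiles formed the list with the lowest SD relative to its mean share among the 6 lists above 1%, at 2.7% of the mean against 4.63% for the translation factors. It took 2.03, 1.98, 1.9, 2.0 and 2.02% of the summed FPKM, or 1.99% ± 0.0536 (SD, n = 5). PRDX6, a peroxiredoxin that reduces phospholipid peroxides, was measured at 2999.8, 2659, 3052, 2613 and 2740.2 FPKM. MGST3 and GSTP1, which encode glutathione transferases, had means of 1329 ± 251 and 520.3 ± 121 FPKM. GPX1, a selenium-dependent glutathione peroxidase, had one of 979.9 ± 153 FPKM. The ferritin genes FTH1 and FTL, which store iron, had means of 1162 ± 241 and 821 ± 188 FPKM.

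A group of sulfide-handling genes, put together after their values were seen, was also abundant. SELENBP1, an oxidase of methanethiol, was measured at 1079, 818, 868, 963 and 838 FPKM. TST, the sulfurtransferase rhodanese, was measured at 822, 689, 892, 889 and 743 FPKM, and ETHE1, a persulfide dioxygenase, at 816, 521, 748, 685 and 617 FPKM. SQRDL, which encodes the quinone reductase that oxidises hydrogen sulfide, was measured at 420.2, 339, 417, 375 and 388 FPKM. As deposited, no library departed strongly for any of them, and 6 of the 7 genes looked at were abundant, with a median SD of 0.17 on the log2 scale. The exception was TSTD1, with a mean of 2.94 ± 0.81 FPKM. The evenness depended on the scale. After median-ratio scaling the SDs were 0.32 for SELENBP1, 0.37 for TST, 0.46 for ETHE1 and 0.36 for SQRDL. Those of SUOX and MPST, the other abundant members, were then 0.24 and 0.17, against 0.28 and 0.17 as deposited.

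The ribosomal protein list took 31.9, 25.8, 34.4, 25.6 and 27.3% of the summed FPKM, or 29% ± 3.96 (SD, n = 5). CON1 and CON3 were high and CON2 and CON4 low. Of 76 genes found, 75 were abundant and 62 of these had an SD above the median of all abundant genes. The member that was not abundant was RPS15A, with a mean of 2.71 ± 0.709 FPKM. Ribosomal protein genes have many processed copies in mammalian genomes, so how the authors' counting placed shared reads could move the level of single members. Among the translation factors, TPT1 had a mean of 1495 ± 348 FPKM in the higher of its 2 entries, EEF1B2 one of 722 ± 212 FPKM and EEF2 one of 305 ± 52.3 FPKM.

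**Figure D2:**
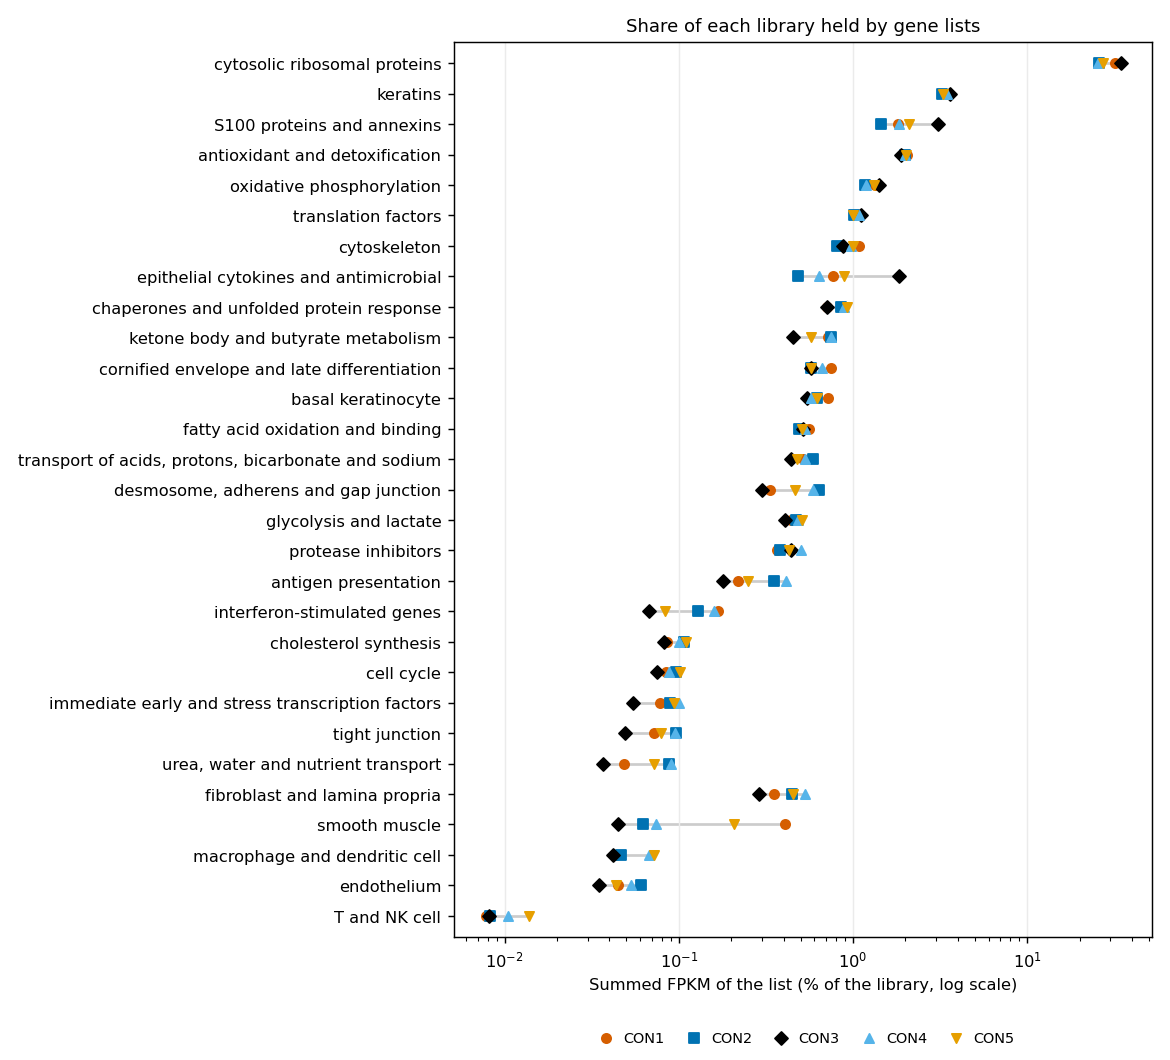
Summed FPKM of gene lists as a percentage of the summed FPKM of each library (log scale), 1 symbol per CON library, with the lists of epithelial and general functions above 5 lists of other cell types. Ribosomal proteins take 29% on average and keratins 3.43%, and the smooth muscle list is spread widest among those drawn, with CON1 and CON5 high.

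Genes known from connective tissue, vessels, macrophages and muscle were measured beside the epithelial ones. Of the connective tissue list, 21 genes were found and 10 were abundant, led by SPARC at 352 ± 61.7 FPKM and the collagen gene COL3A1 at 305 ± 87.5 FPKM. Its summed share was 0.351, 0.445, 0.289, 0.527 and 0.453%, lowest in CON3. The endothelial gene PLVAP, which marks fenestrated vessels, was even, at 107, 110.3, 108, 93.1 and 91.7 FPKM. The complement genes C1QA, C1QB and C1QC of macrophages had means of 54.7 ± 12.1, 64.3 ± 13.6 and 76.1 ± 16.1 FPKM, while the T cell gene CD3E had one of 4.98 ± 1.48 FPKM. In such bulk tissue, fewer cells of a type and less RNA per cell cannot be told apart.

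Smooth muscle genes separated the libraries most. The list took 0.407, 0.0624, 0.0447, 0.0744 and 0.208% of the summed FPKM, so CON1 and CON5 were above the other 3 libraries, whose mean share was 0.0605% ± 0.0149 (SD, n = 3). DES, which encodes the muscle filament desmin, was measured at 481, 2.88, 3.2, 7.3 and 218 FPKM. ACTG2, the gamma actin of visceral smooth muscle, was measured at 336, 7.08, 7.6, 12.2 and 139 FPKM, and the actin-binding CNN1 at 190.2, 9.09, 5.75, 9.4 and 73.3 FPKM. In each case CON1 was highest, CON5 next, and CON2, CON3 and CON4 low and close together. Of 18 smooth muscle genes found, 7 were abundant, and all 7 had an SD above the median of abundant genes. That count is partly fixed by the filter. DES, ACTG2, CNN1, TPM2 and TPM1 had medians of 7.3, 12.2, 9.4, 35 and 48.4 FPKM. They reached a mean of 50 FPKM only through CON1 and CON5, whose values also raise their SD. TAGLN and ACTA2, the other abundant members, had smaller SDs than DES, ACTG2 and CNN1, at 0.91 and 0.50 on the log2 scale. TAGLN was measured at 366, 77.8, 92.8, 94.7 and 172 FPKM. The skeletal muscle list stayed low, at 0.0087, 0.0069, 0.00546, 0.00496 and 0.00427% of the summed FPKM, highest in CON1 and lowest in CON5, with MYH2 listed at 0 in every library.

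**Figure D3:**
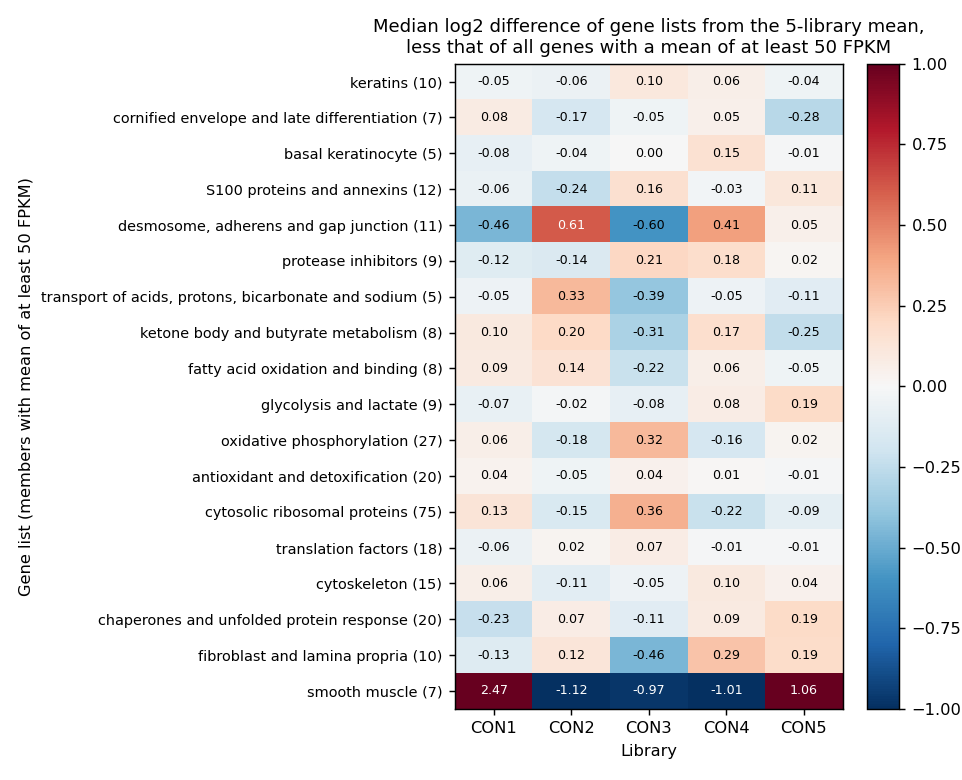
Median log2 difference of each gene list (rows, with the number of abundant members) from the mean of the 5 libraries, less that of all abundant genes, in CON1 to CON5 (columns). Red is above and blue below, with the colour ending at 1, and the strongest values are those of the smooth muscle list, from 2.47 in CON1 to -1.12 in CON2. DES, ACTG2, CNN1, TPM2 and TPM1 entered the median of the smooth muscle list only through CON1 and CON5, so its values are partly fixed by the filter. Outside that list the strongest is 0.61, for cell junction genes in CON2.

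Set against all abundant genes, several lists departed in CON3. The median of the 75 abundant ribosomal protein genes lay 0.36 above the 5-library mean on the log2 scale in CON3, and that of the 27 respiratory chain genes 0.32 above. The cell junction list had a median of -0.60 in CON3 and -0.46 in CON1, against 0.61 in CON2 and 0.41 in CON4. The ketone body list had -0.31 in CON3 and -0.25 in CON5. Keratins, antioxidant genes and translation factors stayed within 0.11 of the median of all abundant genes in each library. With median-ratio scaling the SDs of junction genes mostly fell, such as from 0.40 to 0.18 for GJB2 and 0.29 to 0.10 for JUP. Those of PERP and PKP3 rose, from 0.20 to 0.25 and from 0.14 to 0.26. The departures above are relative to abundant genes, and their size against all entries was not tested.

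Gene length moved with these differences. For 974 of the 1050 abundant genes a length from start to end, introns included, was known from RefSeq. In CON3 the 244 shortest genes had a median difference of 0.21 from the 5-library mean on the log2 scale, less that of all abundant genes, and the 244 longest -0.19. In CON2 the shortest had -0.12 and the longest 0.13, and in CON4 -0.15 and 0.15. The 50 most abundant genes had a median length of 3.73 kb in the 49 with a length, against 10.4 kb for all abundant genes. The part of length in the departures of the lists was not tested.

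The SD of log2(FPKM + 1) over the 5 libraries had a median of 0.29 over the 1050 abundant genes, and was 0.45 with median-ratio scaling and 0.19 without CON1 and CON3. As deposited, 90% of the genes lay between 0.11 and 0.72. The highest library was less than 2 times the lowest for 780 genes and at least 10 times for 12. No abundant gene was listed at 0 in any library. Of the 23 lists with at least 3 abundant members, 17 had a median SD above 0.29, and the lowest belonged to glycolysis and lactate, at 0.19.

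**Figure D4:**
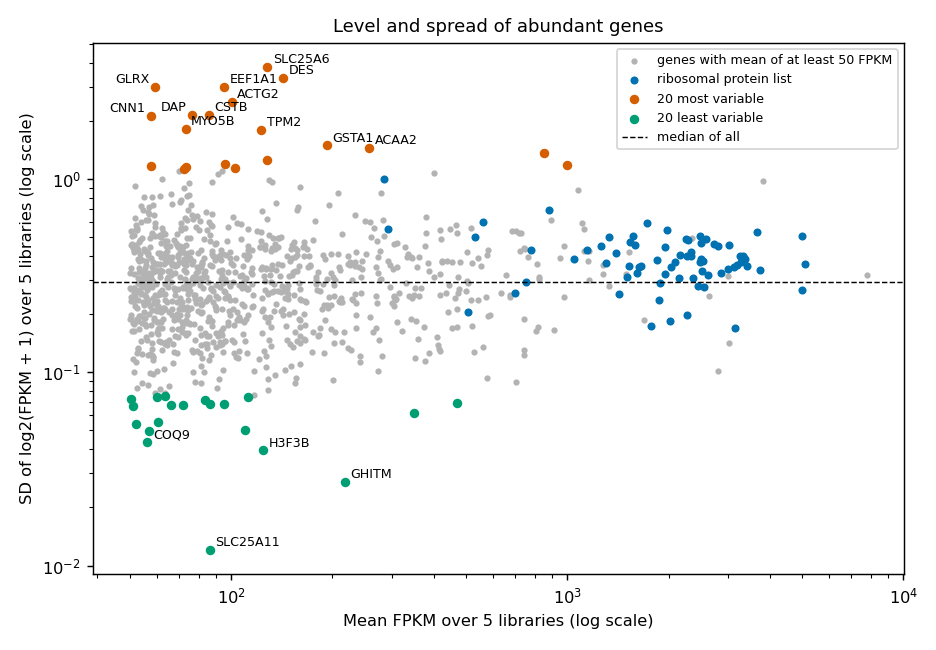
SD of log2(FPKM + 1) over the 5 CON libraries against mean FPKM (both axes on log scales) for the 1050 abundant genes. The 75 genes of the ribosomal protein list are in blue, the 20 least variable genes in green and the 20 most variable in orange. Of the 20 most variable, 2 are ribosomal, near the share of 75 in 1050. The dashed line is the median SD of 0.29, and SLC25A11 lies lowest at 0.012 and SLC25A6 highest at 3.80.

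The least variable abundant gene was SLC25A11, the mitochondrial carrier of oxoglutarate and malate. It was measured at 86.4, 86.6, 85.5, 86.7 and 87.5 FPKM, an SD of 0.012 on the log2 scale. GHITM, a protein of the inner mitochondrial membrane, was measured at 218, 216, 214, 225 and 218 FPKM. H3F3B, which encodes the replacement histone H3.3, was measured at 122, 123, 130, 125 and 121 FPKM, and COQ9, a factor of coenzyme Q synthesis, at 57, 57.1, 53.5, 56 and 57.9 FPKM. In none of these did any library stand apart.

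The 20 least variable genes also held the mitochondrial phosphate carrier SLC25A3, at 63.2, 57.2, 62.1, 59.6 and 60.9 FPKM, and the ATP synthase subunit ATP5B. ARPC5, a subunit of the actin-nucleating complex, was measured at 59.7, 55.4, 58.7, 56 and 55.4 FPKM and UBAC1, a subunit of a ubiquitin ligase, at 110.2, 110.4, 104, 109 and 115 FPKM. The palmitoyltransferase ZDHHC4, the methionine sulfoxide reductase MSRB1, the chromatin protein MORF4L1 and the RNA-binding RALY had means between 51 and 94.9 FPKM. The secretory pathway was represented by KDELR2, a receptor that returns proteins to the endoplasmic reticulum, RPN1, a subunit of the N-glycosylation enzyme, OS9, a lectin of protein quality control, and EMC10, a subunit of the membrane insertase. GNAS, the stimulatory G protein subunit, was the most abundant of the group after ATP5B, at 369, 335, 336, 360.1 and 343 FPKM. None of the 20 belonged to the ribosomal protein list, which held 75 of the 1050 abundant genes. At that share few would be among any 20, so the absence is not a result. SDs of the 20 ran from 0.012 to 0.075.

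Which genes were least variable depended on the scale. After scaling each library by the median ratio to the other libraries, with factors of 0.941, 1.17, 0.773, 1.15 and 1.08, none of the 20 was among the 20 least variable. The least variable gene was then SLC9A3R1, the scaffold of the sodium-proton exchanger, at 0.020, followed by CRAT, the carnitine acetyltransferase, at 0.033. With each library scaled to the same sum, none of the 20 stayed either, and RPL5 came first at 0.038. An SD under 0.2 was found for 272 genes as deposited, for 107 after median-ratio scaling, for 380 after scaling to the same sum, and for 0 genes under all 3. COQ9 came closest, with 0.21 as the highest of its 3 SDs, followed by UBAC1 with 0.21.

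Genes often used as references for quantitative PCR differed widely in spread. Of 19 such genes, a list put together after the data were seen, 12 were abundant, with 7 above and 5 below the median SD of abundant genes. ACTB was measured at 729, 312, 344, 381 and 586 FPKM, with CON1 and CON5 high, and had an SD of 0.53 on the log2 scale. These are also the libraries with the highest smooth muscle share, whose part in the ACTB levels was not tested. B2M, the light chain of MHC class I, was measured at 923, 1369, 838, 1692 and 985 FPKM, with CON2 and CON4 high, and had an SD of 0.43, above the median of 0.29, but of 0.27 after median-ratio scaling, below that scaling's median of 0.45. GAPDH had an SD of 0.27, below the median of 0.29, but of 0.47 after median-ratio scaling, above that scaling's median of 0.45. PGK1 was the steadiest of the 12, at 87.2, 89.9, 86.7, 92.6 and 116 FPKM and an SD of 0.17, or 0.24 after median-ratio scaling.

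The 20 most variable abundant genes included smooth muscle genes and genes in which a single library stood apart. Some reached a mean of 50 FPKM only through their high libraries, so the filter partly fixed their place here. Medians over the 5 libraries were 0.836 FPKM for SLC25A6, 3.51 FPKM for GLRX and 19.2 FPKM for MYO5B. Those of DES, ACTG2, CNN1 and TPM2 ran from 7.3 to 35 FPKM. The smooth muscle genes were DES, ACTG2, CNN1 and TPM2, with SDs of 3.33, 2.51, 2.12 and 1.80 on the log2 scale. Without CON1 and CON5 these SDs fell to 0.60, 0.39, 0.35 and 0.46. As CON1 and CON5 were the high libraries, a fall was fixed by that choice. TPM2, a tropomyosin, was measured at 394, 18.4, 35, 29.4 and 137 FPKM.

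**Figure D5:**
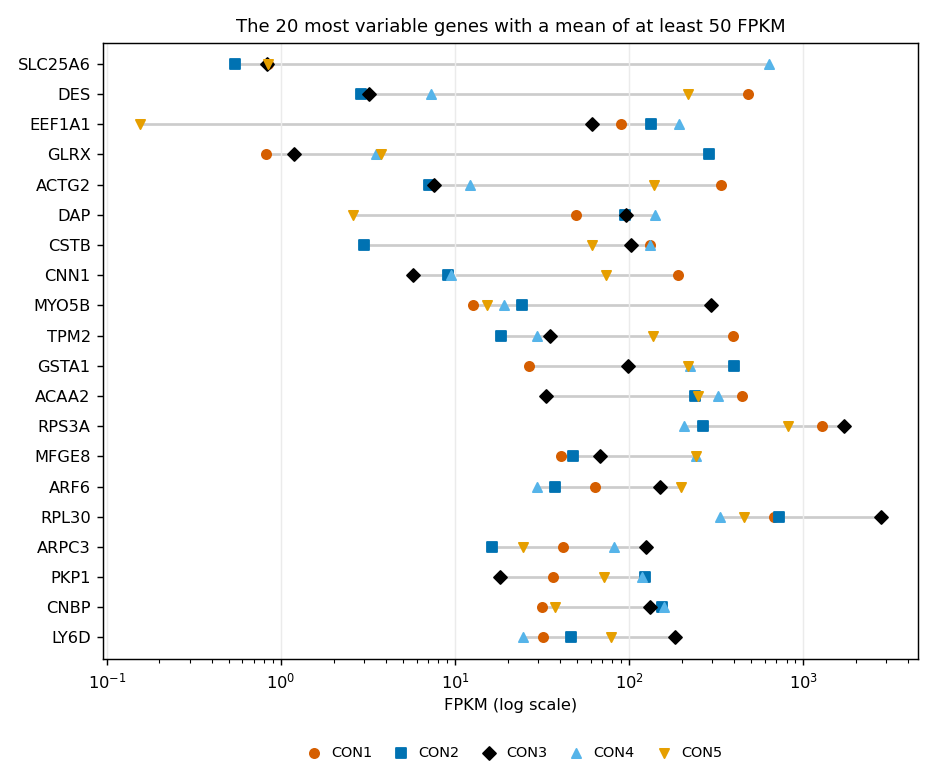
FPKM (log scale) of the 20 most variable abundant genes, ordered by SD of log2(FPKM + 1), 1 symbol per CON library, with a grey line from the lowest to the highest library. SLC25A6 and GLRX show 1 library high and 4 low, EEF1A1, DAP and CSTB show 1 library low and 4 high, and DES, ACTG2, CNN1 and TPM2 show CON1 and CON5 above the other 3.

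SLC25A6, an ADP/ATP carrier, was measured at 0.836, 0.544, 0.827, 637 and 0.842 FPKM. CON4 was high and the other 4 libraries were below 1 FPKM. Its relative SLC25A5 had no such switch, at 185, 165, 269, 173 and 264 FPKM. GLRX, the thiol reductase glutaredoxin, was measured at 0.823, 287, 1.19, 3.51 and 3.73 FPKM, with CON2 alone high.

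The opposite pattern, low in a single library, was found as well. EEF1A1, the elongation factor that delivers tRNA to the ribosome, was measured at 89.2, 133, 61.2, 193 and 0.155 FPKM, with CON5 near 0. DAP was measured at 49.6, 94.9, 95.3, 139.7 and 2.58 FPKM, again with CON5 low. CSTB, which encodes the protease inhibitor cystatin B, was measured at 132, 2.99, 102, 131 and 61.4 FPKM, with CON2 low. EEF1A1 and SLC25A6 have close relatives or copies, so their levels are uncertain where shared reads were split.

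In a pair of genes that lie next to each other in the RefSeq order, CON3 stood apart in opposite directions. MYO5B, a myosin motor of recycling vesicles, was measured at 12.6, 24.1, 295, 19.2 and 15.3 FPKM and was high in CON3. ACAA2, a mitochondrial thiolase of fatty acid oxidation, was measured at 444, 240, 33.2, 321 and 247 FPKM and was low in CON3. Without CON1 and CON3 the SDs of MYO5B and ACAA2 fell from 1.82 and 1.45 to 0.31 and 0.23. As CON3 was the library apart, a fall was fixed by that choice. GSTA1, a glutathione transferase, was measured at 26.6, 398, 97.9, 222 and 219 FPKM, with CON2 highest and CON1 lowest. ARF6, a small GTPase of membrane recycling, was measured at 63.8, 37.4, 149.6, 29.4 and 198 FPKM, with CON3 and CON5 high.

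MFGE8, a secreted bridge for the uptake of dying cells, was measured at 40.5, 47.3, 68.1, 241 and 242 FPKM, high in CON4 and CON5. PKP1, a desmosomal plakophilin, was measured at 36.4, 123, 18.1, 118 and 71.5 FPKM, with CON2 and CON4 high and CON3 low, as GJB2 was. LY6D, a surface protein of keratinocytes, was measured at 31.9, 46.2, 182, 24.4 and 78.2 FPKM and was highest in CON3. The ribosomal protein genes RPS3A and RPL30 were among the 20 too, a count near the share of 75 in the 1050 abundant genes. RPS3A was measured at 1278, 263, 1703, 205 and 811 FPKM, low in CON2 and CON4. RPL30 was measured at 679.6, 721, 2805, 329.9 and 456 FPKM, with CON3 highest.

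The cytoskeleton list was led by MYL6, a myosin light chain of non-muscle and smooth muscle cells, at 1568, 943, 1556, 1083 and 1248 FPKM and by the cytoplasmic actin ACTG1 at 965, 564, 854, 818 and 918 FPKM. CON2 was lowest for both. Some abundant genes belonged to none of the lists. LYPD2, of the Ly6 family, was measured at 1528, 957, 1625, 742 and 742 FPKM, with CON1 and CON3 high. The zinc finger gene ZC3H10 and SERF2 had means of 1153 ± 312 and 950.3 ± 258 FPKM, and PTGR1, a reductase of prostaglandins and leukotrienes, one of 819 ± 96.8 FPKM.

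Abundant interferon-stimulated genes had a median SD of 0.54 on the log2 scale. ISG15, a ubiquitin-like protein induced by interferon, was measured at 400.4, 215, 154, 267 and 128 FPKM and IFI6, another interferon-induced gene, at 156, 73.6, 57.3, 145 and 75.6 FPKM. Both were highest in CON1 and above the remaining libraries in CON4 as well. Of 28 interferon-stimulated genes found, 4 were abundant, beside 1050 of the 13516 symbols over all. The chaperone gene HSPA8 was measured at 339.9, 456, 406, 519 and 677 FPKM and was highest in CON5. The cell cycle list held 27 found genes and 1 abundant one, the histone gene H2AFZ, while the proliferation marker MKI67 had a mean of 3.31 ± 2.19 FPKM.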

How the data were processed

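Gene levels had been measured by RNA-seq in 15 libraries, of which the 5 labelled CON were used. Each library has its own table, deposited by the authors, whose values are in FPKM per the file headers. Per the submitters' processing notes the tools included HISAT2 and StringTie 1.3.4d. Genome build and annotation: not given in the sources used here. Gene symbols came from the files, and 346 of 1933 gene numbers were named through RefSeq ARS-UI_Ramb_v3.0. Of 43 symbols with several entries, the entry with the highest mean was used.

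Genes were ranked by mean FPKM. Spread was the SD of log2(FPKM + 1) among symbols with a mean of at least 50 FPKM. Depth is unknown, so 5 libraries limit the precision. Genes were named by rule, the 30 most abundant (ribosomal ones mostly as a group), the 15 least and 15 most variable, and the 4 highest members and defining markers of each of 36 lists, in which 670 of 797 members were found; others were picked after their values were seen, and some genes of the rule are not reported here. The members and lists were chosen with earlier results of these data known. Alternatives were median-ratio scaling, scaling to equal sums (TPM), other filters and pseudocounts, the coefficient of variation, and leaving out libraries. The measure of spread was tested on simulated data. Python 3.11.15, pandas 2.3.3 and numpy 2.4.6 were used. Protein lengths and promoter motifs were planned and not analysed here; RefSeq gene length took the place of protein length.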

Additional observations from a re-analysis of the deposited data

Results flagged for a closer look

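Of 216 genes and summed lists tested, 12 exceeded Dixon's 95% critical value of 0.71 for 5 values. The measure was the gap of the outermost library to the nearest other library, divided by the range of all 5. It was taken on log2(FPKM + 1) for genes and on log2 of the percentage share for lists. Chance flags about 1 in 20, here 10.8, so the number is close to that. The genes tested include the most variable ones, chosen for their spread over the same libraries, and 7 of the 12 belong to the 20 most variable, so their flags describe that choice. Low in CON5 were EEF1A1 at 0.155 FPKM and DAP at 2.58 FPKM. Low in CON2 were CSTB at 2.99 FPKM, SPINT2, a serine protease inhibitor, at 232 FPKM against 304 to 333 FPKM elsewhere, and the chemokine gene CCL5 at 4.88 FPKM against 8.8 to 10.6 FPKM. High in CON2 was GLRX at 287 FPKM. In CON3, ACAA2 was low at 33.2 FPKM and MYO5B high at 295 FPKM. P4HB, a disulfide isomerase, was low in CON1 at 239 FPKM against 393 to 438 FPKM. High in CON4 were SLC25A6 at 637 FPKM and the mast cell genes CPA3 and HPGDS, at 0.652 and 0.129 FPKM, levels at which a few reads could decide the value.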

How the results depend on the processing

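The set of the 50 most abundant genes kept 45 to 50 of its members under the other scalings, the median in place of the mean, all entries with or without a symbol, and each set of libraries left out. With the ribosomal protein list left out of the ranking it kept 7, since 43 of the 50 belong to that list. Of the 20 least variable genes, 0 remained with median-ratio scaling, 0 with TPM and 0 with no filter, 8 with a mean of at least 20 FPKM, 6 with at least 100 FPKM, 8 without CON1 and CON5 and 5 without CON1 and CON3. Leaving out 1 library kept 10 to 15, the fewest without CON1 or without CON3. Of the 20 most variable genes, 12 remained with TPM, 10 with a mean of at least 20 FPKM, 10 with at least 100 FPKM, 8 with no filter, 10 without CON1 and CON5 and 12 without CON1 and CON3, and 14 to 17 with 1 library left out. The median SD of 0.29 became 0.45 with median-ratio scaling and 0.19 without CON1 and CON3, and was 0.26 to 0.31 with 1 library left out. The filters change which genes compete; otherwise the cause was not tested. The mean share of smooth muscle genes of 0.159% became 0.0973% without CON1 and 0.0605% without CON1 and CON5. Lists above the median SD numbered 12 to 19 over all settings, against 17. The SD of 110 of 180 named genes moved by at least its jackknife SE with median-ratio scaling. The alternatives without pairs of libraries, and without the ribosomal list, were chosen after seeing the data. No paired analysis was possible because there is 1 group and no test. Depth is unknown, so counting error could not be set apart from the spread between libraries.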

Other observations

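Some of the highest entries have no gene symbol. The highest of all 19304 entries was LOC101113601, at 7996, 12075, 10461, 9233 and 15607 FPKM, a mean of 11074 ± 2949 FPKM, above KRT17. LOC101103771, which lies between S100A9 and S100A8 in the RefSeq gene order, was measured at 3078, 1506, 6111, 2525 and 3309.8 FPKM. Like them, it was highest in CON3 and lowest in CON2, places held by 383 and 498 of the 1050 abundant genes. LOC101110777 had a mean of 3814 ± 1430 FPKM.

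Among 1324 named genes that reached 50 FPKM in a library, 11 had 1 library at least 10-fold away from the nearest of the other 4, 5 above and 6 below. This count was made after the data were seen. Besides those named in the report, they were TOMM20, TGM1, RBM34, FAM127A and GSTA1-1. In a separate look at neighbours in the RefSeq order, 3 pairs moved in opposite directions, all in CON3. Of the genes in these pairs, ACAA2 and RABGGTA were not among the 11. TOMM20, a receptor for mitochondrial import, was measured at 72.5, 48, 0.00831, 54.4 and 65.8 FPKM, and its neighbour RBM34 at 4.32, 3.25, 66.8, 3.74 and 4.57 FPKM. RABGGTA, a prenyltransferase subunit, was measured at 109, 71.4, 14.9, 83 and 87.9 FPKM, and its neighbour TGM1, a transglutaminase of the cornified envelope, at 0, 0.0292, 184, 0 and 2.11 FPKM. ACAA2 and MYO5B are the remaining pair. They were the 3 pairs of 569 neighbouring pairs looked at in which both genes were, in 1 library, at least 4-fold away from the median of the other 4 on the log2(FPKM + 1) scale and in opposite directions. The cause was not tested.

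A few genes that most cells use were listed low in every library, such as SOD1, which encodes the copper-zinc superoxide dismutase, at 1.81, 0.00826, 2.25, 2.73 and 1.61 FPKM, and ATP5I, a subunit of ATP synthase, at 0.305, 0.681, 0.443, 0.116 and 2.62 FPKM. YWHAZ, a reference gene, was measured at 6.82, 25.5, 5.41, 32 and 27.5 FPKM, low in CON1 and CON3. JUN, an immediate early transcription factor, was measured at 38.8, 0.186, 2.75, 45.3 and 37.8 FPKM, near 0 in CON2 and low in CON3.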
